A study of Mus musculus with 4 samples.

Results

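The choroid plexus is the epithelium that lines fronds of tissue in the brain ventricles and secretes cerebrospinal fluid. Its cells release carrier and plasma-type proteins into the fluid, and they move ions, bicarbonate and vitamins across a barrier sealed by tight junctions. The 6 genes described here stand for both tasks and were chosen by name, with their values in these libraries known. Ttr, Lbp and F5 encode secreted proteins, while Slc4a5, Folr1 and Kcnj13 encode proteins of membrane transport. They are 6 of the 230 genes that the authors deposited as lacking a response in tau-/- mice.

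RNA was sequenced from brains of C57Bl/6 mice at 6 weeks of age, an hour after intraperitoneal injection, to ask how far seizure-induced gene expression depends on tau. There were 4 libraries, 1 for each condition: tau+/+ with vehicle (labelled sham), tau+/+ with 50 mg/kg PTZ (pentylenetetrazole, which brings on seizures by blocking GABA-gated inhibition), tau-/- with vehicle and tau-/- with the same dose of PTZ. The tau-/- mice carry a cDNA for green fluorescent protein knocked into the Mapt gene and lack tau in all cells, and PTZ mice were picked for a similar seizure score. The number of mice behind a library and the region dissected are not stated, and the labels also speak of cultured primary neurons beside the brain they name as the source.

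Values are FPKM, the fragments assigned to a gene, scaled to its transcript length and to the mapped fragments of the library, so that levels can be set side by side between genes. Between libraries they also depend on composition, since a change in an abundant transcript shifts the values of all others. How deep each library was sequenced does not show in such values. With 1 library per condition no difference has a replicate check, no test was made, and every value below is a description. All 230 genes passed 1.5-fold after PTZ in tau+/+, because the authors selected them so: 175 genes (76.1%) rose and 55 genes (23.9%) fell. Mapt itself is not analysed here, so the genotypes rest on the labels.

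All 6 genes had the same shape across the libraries. Each was highest in tau+/+ PTZ and lowest in tau-/- PTZ, a pattern met by 20% of the 230 genes. In tau+/+ they were 1.51-fold to 1.90-fold higher with PTZ than with vehicle, a range that begins at the limit of the selection, and 0 of the 6 passed 2-fold, against 37% of the table. In tau-/- all 6 were lower with PTZ than with vehicle by over 1.5-fold, against 16.5% of the table that was lower and 8.7% that was higher by that much, and their median log2 response was -4.37, against -0.10 over all 230 genes. In bulk RNA, fewer choroid plexus cells in a sample and less RNA per cell cannot be told apart.

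**Figure D1:**
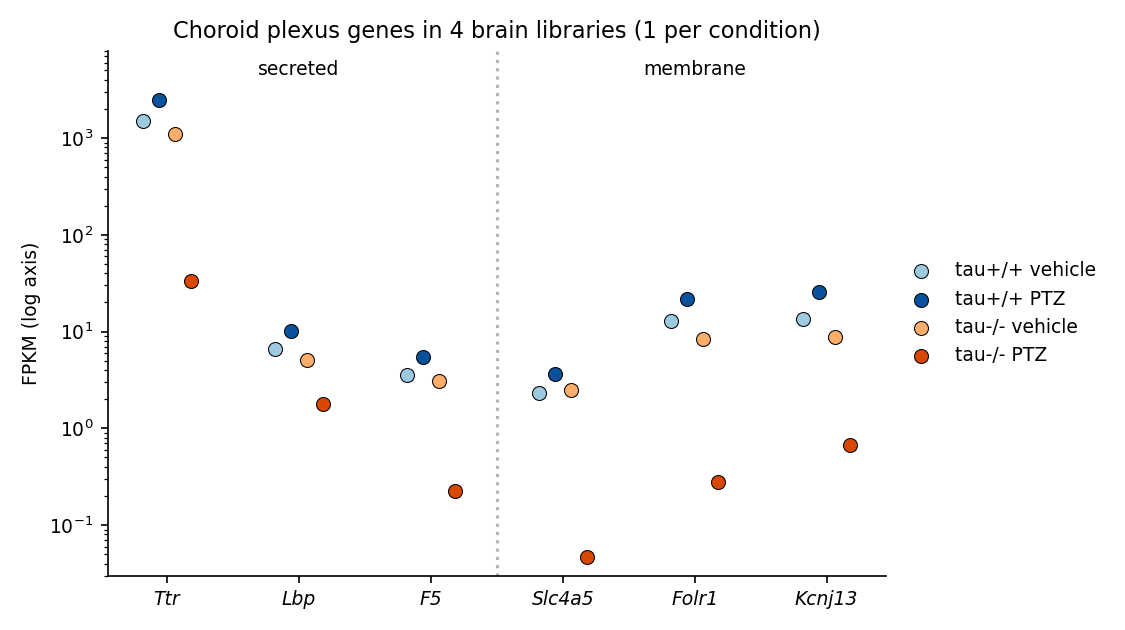
FPKM (log axis) of the 6 genes in the 4 libraries, 1 point per library and gene, with secreted proteins to the left of the dotted line and membrane proteins to its right. In every gene the tau-/- PTZ point lies below the other 3, from 33.1 FPKM for Ttr to 0.0466 FPKM for Slc4a5.

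Ttr encodes transthyretin, the carrier of thyroxine in cerebrospinal fluid and the classical marker of choroid plexus epithelium. The gene (ENSMUSG00000061808.4) lies on the plus strand of chromosome 18 of GRCm38, from 20665280 to 20674321, and its principal transcript has 4 exons. With vehicle its level was 1504 FPKM in tau+/+ and 1107 FPKM in tau-/-. With PTZ it was 2492 FPKM in tau+/+ and 33.1 FPKM in tau-/-. It was the most abundant of the 230 transcripts in 3 libraries, and in tau-/- PTZ it stood at place 14. Ttr alone made up 48.7% of the FPKM summed over the table in tau+/+ vehicle, 36.5% in tau+/+ PTZ, 37.3% in tau-/- vehicle and 1.81% in tau-/- PTZ. The summed FPKM of the other 229 genes was 1582 in tau+/+ vehicle, 4327 in tau+/+ PTZ, 1860 in tau-/- vehicle and 1797 in tau-/- PTZ. Within tau-/- the drop in the sum after PTZ thus lay mostly in Ttr. Between the PTZ libraries the other genes together were lower in tau-/- as well, a direction that the selection favours. After PTZ Ttr changed by 0.73 on the log2 scale in tau+/+ and by -5.07 in tau-/-, where 2.99% of the vehicle level was left.

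Lbp encodes the lipopolysaccharide-binding protein, which hands bacterial lipopolysaccharide to CD14. The gene (ENSMUSG00000016024.9) lies on the plus strand of chromosome 2 from 158306493 to 158332852, with 15 exons in its principal transcript. The tau+/+ libraries held 6.56 FPKM with vehicle and 10.2 FPKM with PTZ, and the tau-/- libraries 5.04 FPKM with vehicle and 1.79 FPKM with PTZ. Lbp kept the most of the 6 genes, with 35.6% of its tau-/- vehicle level left in tau-/- PTZ, a log2 response of -1.49. Its log2 response in tau+/+ was 0.63, close to that of the other members.

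F5 encodes coagulation factor V, the cofactor with which factor Xa activates prothrombin. The gene (ENSMUSG00000026579.8) lies on the plus strand of chromosome 1 from 164151838 to 164220277, with 25 exons. F5 went from 3.58 FPKM with vehicle to 5.42 FPKM with PTZ in tau+/+, and from 3.10 FPKM to 0.223 FPKM in tau-/-. Its rise in tau+/+ was the smallest of the 6, at 1.51-fold, and its log2 response in tau-/- was -3.80. An antisense lincRNA, Gm16548, shares 3.53% of its exonic bases.

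Slc4a5 encodes a sodium bicarbonate cotransporter of the apical membrane, which takes part in setting the pH of cerebrospinal fluid. The gene (ENSMUSG00000068323.12) lies on the plus strand of chromosome 6 from 83219828 to 83304945, with 25 exons. It was the scarcest of the 6 in every library, with 2.33 FPKM (vehicle) and 3.66 FPKM (PTZ) in tau+/+ and 2.47 FPKM (vehicle) and 0.0466 FPKM (PTZ) in tau-/-. The last value is 1.89% of tau-/- vehicle, a log2 response of -5.73, and no other gene of the table with a value above 0 in that library fell further. At a transcript length of 5123 bases it stands for about 0.239 fragments for every 1000000 mapped, so the size of this fall is loosely set.

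Folr1 encodes folate receptor alpha, which is anchored to the membrane by a lipid tail and carries folate across the choroid plexus into the fluid. The gene (ENSMUSG00000001827.12) lies on the minus strand of chromosome 7 from 101858331 to 101870788, with 7 exons. Its level was 13.0 FPKM with vehicle and 21.5 FPKM with PTZ in tau+/+, and 8.45 FPKM with vehicle and 0.276 FPKM with PTZ in tau-/-. Both its rise in tau+/+ (log2 0.73) and its fall in tau-/- (log2 -4.94) lay beside those of Ttr, although its level was far lower in every library.

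Kcnj13 encodes an inwardly rectifying potassium channel of the epithelium. The gene (ENSMUSG00000079436.3) lies on the minus strand of chromosome 1 from 87386363 to 87394729, with 3 exons, wholly inside Gigyf2 on the opposite strand. Of its exonic bases 49.1% are also exonic in Gigyf2, and since the strand setting of the libraries is not stated, fragments of the 2 genes may not have been told apart. As listed, Kcnj13 stood at 13.5 FPKM with vehicle and 25.6 FPKM with PTZ in tau+/+, and at 8.73 FPKM with vehicle and 0.665 FPKM with PTZ in tau-/-. Its rise of 1.90-fold in tau+/+ was the largest of the 6, and its log2 response in tau-/- was -3.71.

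All 6 genes were higher with PTZ than with vehicle in tau+/+ and lower in tau-/-, by differing amounts. The sequence before the start site is shown for the 3 genes found in the RefSeq promoter table for GRCm38.p6, F5, Slc4a5 and Kcnj13. Each line gives the 250 bases before the RefSeq start, 5′ to 3′ on the strand of the gene, at chr1:164151585-164151834 for F5, chr6:83237125-83237374 for Slc4a5 and chr1:87394730-87394979 for Kcnj13. The RefSeq start of Slc4a5 lies inside the GENCODE gene, which has a further start upstream. Capitals mark matches on either strand to 6 motifs. The TATA box was searched with the letters TATAAA and no mismatch. The forkhead motif, bound by FOX proteins, was taken in its short form as TAAACA on both strands. The CCAAT box was matched by the letters of its name. The GC box, a binding motif of Sp1, was matched with the letters GGGCGG in full. The core of the cAMP response element, which CREB binds, was matched with the letters TGACG only. The glucocorticoid receptor motif was matched in part only, with the letters AGAACA.
F5: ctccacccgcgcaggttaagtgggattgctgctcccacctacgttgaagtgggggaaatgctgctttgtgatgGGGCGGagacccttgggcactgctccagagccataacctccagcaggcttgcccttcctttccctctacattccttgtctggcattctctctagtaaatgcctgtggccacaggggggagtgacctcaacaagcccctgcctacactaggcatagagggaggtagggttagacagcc
Slc4a5: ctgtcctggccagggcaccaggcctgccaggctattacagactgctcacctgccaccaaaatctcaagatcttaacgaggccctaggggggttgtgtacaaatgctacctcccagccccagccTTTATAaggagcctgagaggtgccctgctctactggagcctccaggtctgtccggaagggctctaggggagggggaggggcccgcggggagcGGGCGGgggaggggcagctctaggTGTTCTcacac
Kcnj13: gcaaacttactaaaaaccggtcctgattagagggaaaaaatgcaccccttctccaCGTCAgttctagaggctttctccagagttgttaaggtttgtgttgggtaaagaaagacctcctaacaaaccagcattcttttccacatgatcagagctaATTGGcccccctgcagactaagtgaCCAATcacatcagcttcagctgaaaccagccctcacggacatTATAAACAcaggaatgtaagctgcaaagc

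No motif was common to the 3 windows. The TATA box letters were found in Slc4a5 and Kcnj13 and in 12.4% of all 32851 windows. In Kcnj13 they lay from 29 to 24 bases before the start, where they share bases with the forkhead-type match. In Slc4a5 they lay on the opposite strand, from 127 to 122 bases before the start. The GC box was found in F5 and Slc4a5 and in 32.7% of all windows. Only the Kcnj13 window held the CCAAT box, on both strands, as did 33.9% of windows on either strand, and it alone held the forkhead-type motif (12.03% of windows) and the core of the cAMP response element (17.8%). The letters taken from the glucocorticoid receptor motif were found in Slc4a5 and in 16.1% of windows. The OTX-type homeodomain motif, searched as TAATCC and present in 6.25% of windows, was in 0 of the 3. The same held for the AP-1 site, searched as TGANTCA and present in 6.75% of windows, and for the full cAMP response element, searched as TGACGTCA and present in 1.55%. GC content was 57.2% for F5, 62.8% for Slc4a5 and 45.2% for Kcnj13, against a median of 52.4% over all windows. A match only says that these letters are present.

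The order of the 6 levels was the same in tau+/+ vehicle, tau+/+ PTZ and tau-/- vehicle, running from Ttr over Kcnj13, Folr1, Lbp and F5 to Slc4a5. Kcnj13 and Folr1 were neighbours with nearly equal values in the vehicle libraries, and no replicates show whether they differ. In tau-/- PTZ the order changed, and Lbp came to stand above Kcnj13 and Folr1. Of the 6 genes, 4 were below 1 FPKM in that library and 0 in any of the others.

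The log2 responses of the 6 genes spanned 0.33 in tau+/+, from 0.60 for F5 to 0.93 for Kcnj13, while in tau-/- they spanned 4.23. The 2 spans are not alike in kind, since the selection at 1.5-fold sets the lower end of the first. For the second, the authors kept genes whose tau-/- response was absent or milder, which limits a rise but sets no limit on a fall. The tau-/- responses fell into steps, with Slc4a5, Ttr and Folr1 from -5.73 to -4.94, F5 and Kcnj13 at -3.80 and -3.71, and Lbp at -1.49. The places of Slc4a5, Folr1 and F5 in this order rest on tau-/- PTZ values far below 1 FPKM, while Ttr stood at 33.1 FPKM. With a pseudocount of 1 FPKM the responses were -5.02 for Ttr, -2.89 for Folr1, -2.55 for Kcnj13, -1.75 for F5, -1.73 for Slc4a5 and -1.11 for Lbp, so that Slc4a5 went from the largest fall to the second smallest. Without it, the secreted genes had a median of -3.80 and the membrane genes a median of -4.94, but both groups of 3 held a wide range. The tau-/- response minus the tau+/+ response was -6.38 for Slc4a5, -5.79 for Ttr, -5.66 for Folr1, -4.64 for Kcnj13, -4.39 for F5 and -2.12 for Lbp on the log2 scale.

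**Figure D2:**
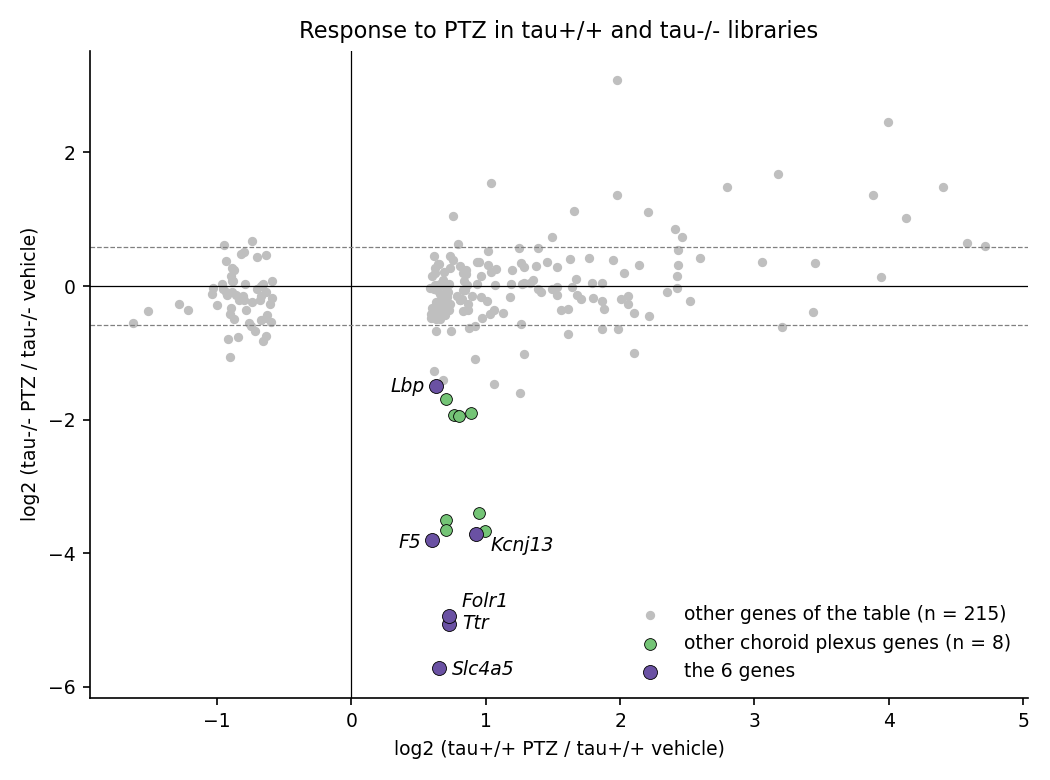
Each point is a gene, with its log2 response to PTZ in tau+/+ on the horizontal axis and in tau-/- on the vertical axis; dashed lines mark 1.5-fold in tau-/-, and Defb11, listed at 0 FPKM in tau-/- PTZ, is left out. The 6 genes (purple) share a small rise in tau+/+ and spread from -1.49 to -5.73 in tau-/-, with 8 other choroid plexus genes (green) among them.

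The vehicle libraries differed less. In tau-/- vehicle 5 of the 6 genes were below tau+/+ vehicle, and 2 of them, Folr1 and Kcnj13, by over 1.5-fold (1.54-fold each), where 10% of the table was lower by that much. By over 2-fold 0 of the 6 were lower, against 1.74%. Ttr was 1.36-fold lower, Lbp 1.30-fold lower, F5 1.16-fold lower and Slc4a5 1.06-fold higher. The median log2 difference of the 6 genes was -0.41, against 0.11 for the whole table. Between the PTZ libraries all 6 were lower in tau-/- by over 1.5-fold, as were 60.4% of the table. Their median log2 difference was -5.75, against -0.78 for the whole table. For genes that rose in tau+/+ the selection favours this direction, since a rise of like size in tau-/- would have kept them out. Of the 230 genes, 175 were lower in tau-/- PTZ than in tau+/+ PTZ and 55 higher, the same counts as rose and fell in tau+/+. The direction for the 6 genes is thus no separate finding. Slc4a5, Folr1 and Ttr were 78.6-fold, 77.9-fold and 75.4-fold lower, Kcnj13 38.4-fold, F5 24.3-fold and Lbp 5.67-fold. The near equality of the first 3 was lost with a pseudocount of 1 FPKM, which gave log2 differences of -2.16 for Slc4a5, -4.14 for Folr1 and -6.19 for Ttr. These comparisons share libraries with the responses above and do not stand apart from them.

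Set against Ttr of the same library, the tau-/- PTZ library lay above the other 3 for Lbp, F5 and Kcnj13, just below them for Slc4a5 and within their range for Folr1. Folr1 had from 0.763 to 0.863 FPKM per 100 FPKM of Ttr in these 3 libraries and 0.835 in tau-/- PTZ. This rests on 0.276 FPKM of Folr1 in that library, and with a pseudocount of 1 FPKM the fall of Folr1 in tau-/- was smaller than that of Ttr, at log2 -2.89 against -5.02. Slc4a5 had from 0.147 to 0.223 in the 3 libraries and 0.141 in tau-/- PTZ, which is 0.633 of its proportion in tau-/- vehicle. Its place below the other libraries rests on 0.0466 FPKM and turned with a pseudocount of 1 FPKM, where Slc4a5 changed by log2 -1.73 in tau-/- and Ttr by -5.02. Kcnj13 had from 0.788 to 1.03 in the 3 libraries and 2.011 in tau-/- PTZ, and F5 had from 0.217 to 0.280 and then 0.675. Lbp departed the most, with 0.408 to 0.455 in the 3 libraries and 5.42 FPKM per 100 FPKM of Ttr in tau-/- PTZ, 11.9-fold its proportion in tau-/- vehicle. The Gigyf2 overlap of Kcnj13 bears on its value here, and its part was not tested.

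**Figure D3:**
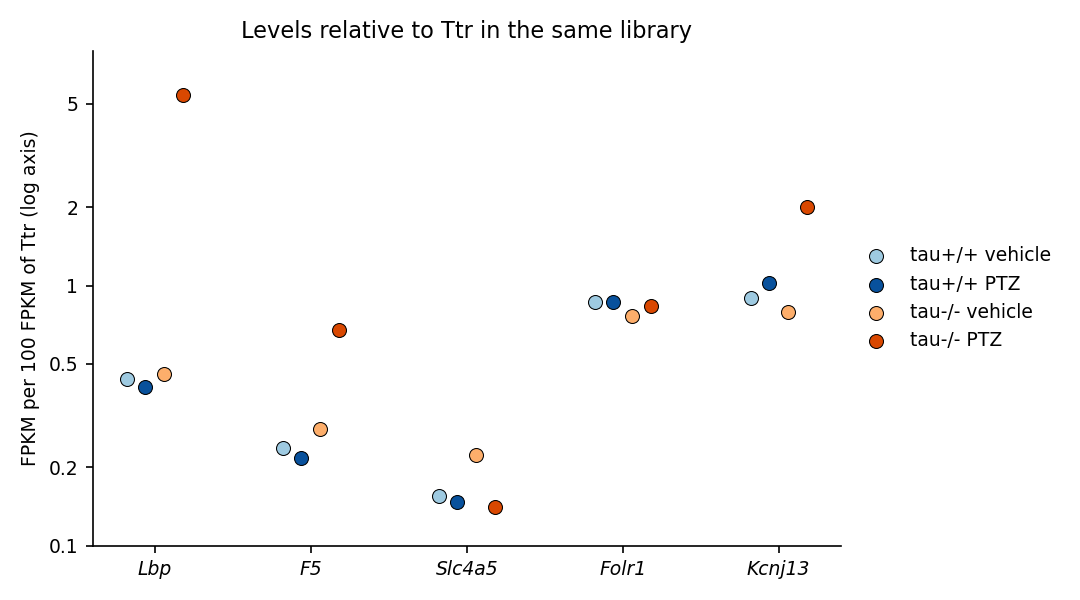
FPKM per 100 FPKM of Ttr in the same library (log axis) for the other 5 genes, 1 point per library. In tau-/- PTZ Folr1 lies within its other libraries at 0.835 and Slc4a5 just under them at 0.141, while Lbp stands at 5.42, above its other libraries.

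Likeness between profiles was measured as the Euclidean distance over 3 log2 ratios to tau+/+ vehicle. Among the members, Ttr and Folr1 were the closest pair at 0.18, then Ttr and Slc4a5 at 0.54 and F5 and Kcnj13 at 0.63, while Lbp was at least 2.14 from any other. Of the 10 genes outside the 6 that lay nearest to their median profile, 7 belong to a list of choroid plexus epithelium genes that was written with the values of the table known. That list holds 8 (3.59%) of the 223 genes outside the 6 for which a distance could be taken, and Defb11, listed at 0 FPKM, had none. The nearest was Aqp1, a water channel, at a distance of 0.76, with 3.09 FPKM (vehicle) and 5.03 FPKM (PTZ) in tau+/+ and 1.87 FPKM (vehicle) and 0.164 FPKM (PTZ) in tau-/-. Next came 1500015O10Rik at 1.04, Abca4, a flippase of retinoid-bearing lipids, at 1.57, Wfikkn2, a secreted binder of growth factors, at 2.29, and Sostdc1, a secreted antagonist of BMP signaling, at 2.33. Wdr86 at 2.38, Cldn1 (a tight junction claudin) at 2.58, Tgtp1 at 2.99, Sema3b at 3.07 and Rdh5 (a retinol dehydrogenase) at 3.10 completed the 10. Lbp, at 3.05, was farther from the median profile of the 6 genes than 8 of these 10. Abca4, Wfikkn2, Wdr86, Tgtp1 and Sema3b were below 3 FPKM in every library, and all distances were taken without a pseudocount.

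The wider list held 29 choroid plexus genes, of which 15 are in the table, among them Ttr, Folr1, Kcnj13 and Aqp1, widely used markers of this epithelium, each above 0 FPKM in every library. All 9 that are not among the 6 genes were highest in tau+/+ PTZ and lowest in tau-/- PTZ, against 20% of the table. In tau-/- all 9 were lower with PTZ than with vehicle by over 1.5-fold, against 16.5% of the table. A choroid plexus gene that did not pass 1.5-fold in tau+/+ could not be in the table. Listed genes outside it, such as Otx2, Kl and Kcne2, have no values here, so these counts do not speak for the whole epithelium. Defb11, a beta-defensin, was listed at 0 FPKM in tau-/- PTZ after 5.86 FPKM in tau-/- vehicle. Apart from it, the log2 responses in tau-/- ran from -3.67 for Wfikkn2 to -1.68 for Rdh5. Wfikkn2, Abca4, Aqp1 and 1500015O10Rik lay between -3.67 and -3.40. Trpv4 (an osmotically gated cation channel), Sostdc1, Cldn1 and Rdh5 lay between -1.94 and -1.68. Lbp at -1.49 was thus the smallest fall of the listed choroid plexus genes that are in the table. That was not so with a pseudocount of 1 FPKM, where Cldn1 at -0.89 and 4 others fell less than Lbp. The 15 genes together summed to 1597 FPKM (vehicle) and 2657 FPKM (PTZ) in tau+/+ and to 1173 FPKM (vehicle) and 41.4 FPKM (PTZ) in tau-/-, sums that are mostly Ttr. The 9 genes outside the 6 summed to 54.7 FPKM (vehicle) and 98.4 FPKM (PTZ) in tau+/+ and to 37.8 FPKM (vehicle) and 5.31 FPKM (PTZ) in tau-/-, a smaller fall.

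Genes that work with the members were few in the table. Of the retinoid genes, Rdh5, Abca4 and Aldh1a2, which makes retinoic acid in meninges, were lower in tau-/- PTZ than in tau-/- vehicle by over 1.5-fold, as Ttr was, with Aldh1a2 going from 1.74 to 1.09 FPKM, where 16.5% of the table was lower by that much. Rdh5, Abca4, Aqp1 and Trpv4 are also on the choroid plexus list, so their falls are the same values as above and add nothing to them. Among the genes of lipopolysaccharide sensing, Cd14, the receptor that Lbp serves, was within 1.5-fold in tau-/-, at 0.966 FPKM with vehicle and 0.884 FPKM with PTZ, as was Nfkbiz, while Nfkbid went from 0.223 to 0.570 FPKM. Of the coagulation and fibrinolysis genes beside F5, A2m, a protease inhibitor, went from 1.63 to 0.676 FPKM in tau-/-, while Plat, the tissue plasminogen activator, had 15.2 and 14.0 FPKM and Thbs1 stayed within 1.5-fold. Aqp1 and Trpv4 were lower, as Slc4a5 was. Kcnj2, another inward rectifier, went from 1.38 to 0.882 FPKM in tau-/- and rose by a log2 of 1.87 in tau+/+, where Kcnj13 rose by 0.93. Folr1 was the only one of 7 folate genes in the table.

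Markers of the other cells of brain tissue were compared in the same libraries, but only those that are in the table. That was 5 of 11 listed genes for ependyma and motile cilia, 5 of 15 for meninges and perivascular fibroblasts and 5 of 12 for endothelium. The authors selected each of them for passing 1.5-fold in tau+/+, so they do not measure how much of each cell type a library held. The 5 listed genes of ependyma and motile cilia, the cells beside the choroid plexus, summed to between 12.2 and 16.97 FPKM, and in tau-/- 0 of the 5 were lower with PTZ than with vehicle by over 1.5-fold (median log2 0.30). With 16.5% of the table lower by that much, 0 of 5 is near the background. The 5 genes of meninges and perivascular fibroblasts summed to 15.9 FPKM (vehicle) and 26.2 FPKM (PTZ) in tau+/+ and to 16.7 FPKM (vehicle) and 11.0 FPKM (PTZ) in tau-/-. Of these, 2, Pcolce (log2 -1.41) and Aldh1a2 (log2 -0.67), were lower with PTZ in tau-/- by over 1.5-fold, against the same 16.5% of the table. All 5 genes of endothelium were higher with PTZ in tau+/+, where the selection put 76.1% of the table. In tau-/- 2 were higher by over 1.5-fold, against 8.7% of the table, and 0 lower (median log2 0.36). These 2 were Klf4 (log2 1.12) and Apold1 (log2 1.68), which in tau+/+ rose by log2 1.66 and 3.17. Both rose with PTZ in both genotypes, so they do not show endothelial content. Counts over 5 genes are too few to set these lists apart from the table. The 11 neuronal genes in the table, of 14 listed, are all activity-induced, and Rbfox3, Snap25 and Syt1 are not in the table. These 11 had medians of 3.44 in tau+/+ and 0.13 in tau-/- for the log2 response. The only glial gene of 7 in the table, Fabp7, was between 24.1 and 41.9 FPKM. None of these markers was listed at 0 in any library, and for the 205 genes outside the lists of choroid plexus, ependyma and meninges the median log2 response in tau-/- was -0.06. How much choroid plexus was in each dissected sample was not measured, and with 1 library per condition it cannot be told apart from genotype and treatment.

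**Figure D4:**
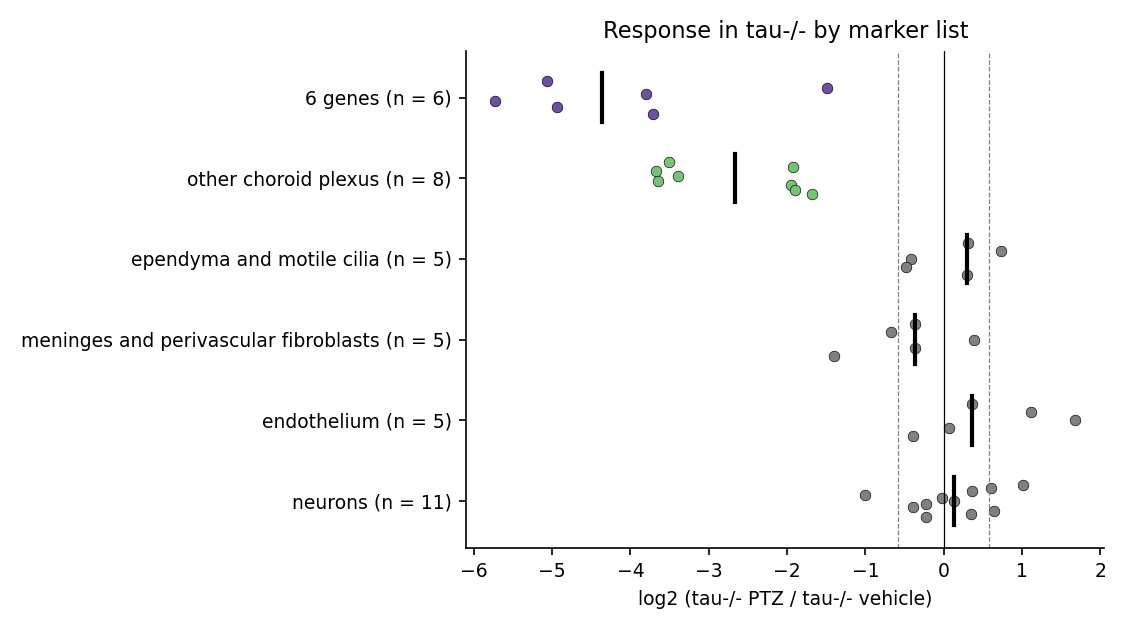
Log2 response to PTZ in tau-/- for the genes of each list in the table, 1 point per gene, with a bar at the median and dashed lines at 1.5-fold; Defb11, listed at 0 FPKM, is left out of the choroid plexus genes. The 6 genes have a median of -4.37 and the 8 other choroid plexus genes a median of -2.67, while the medians of the other lists lie between -0.37 and 0.36.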

How the data were processed

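Per the labels and the paper, total RNA of brain was made into 4 paired-end libraries. Base calls came from CASAVA 1.7, and the authors aligned reads with TopHat2 2.03 and Bowtie2 2.0.0.6 to mm10 (GRCm38), allowing a few mismatches (versions as in the submitters' processing notes). The deposited FPKM values were computed by the authors with Cuffdiff 2.01. The annotation they counted on is not given in the sources used here. The deposited table holds 230 genes chosen by the authors, and its 4 columns of fold changes and p-values from the authors' own comparisons were not used.

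The log2 ratio of 2 FPKM values, with no pseudocount added, was taken within each genotype (PTZ over vehicle), within each treatment (tau-/- over tau+/+) and, for tau-/- PTZ over tau+/+ vehicle, as an alternative. A gene was counted as higher or lower past 1.5-fold, and Defb11, listed at 0, was counted as lower and given no fold. FPKM depends on library composition, so a change in an abundant transcript moves all others, and values of few fragments carry a large counting error, which was not computed here. Fragments for every 1000000 mapped were taken as FPKM times the length of the longest principal transcript. Positions, exons and overlaps came from GENCODE M21 (GRCm38), the build of the authors, in which all 6 genes were found, and promoter windows from RefSeq.

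The genes named are the 6 members, the 10 genes nearest in profile and the listed marker and partner genes. The members and lists were chosen with earlier results of these data known. The alternatives were pseudocounts of 0.1 and 1 FPKM, a mean of at least 1 or 5 FPKM, a 2-fold threshold, centring on other listed genes, tau+/+ vehicle as baseline and leaving out each member. The functions were tested on simulated data. Python 3.11.15, numpy 2.4.6, pandas 2.3.3 and matplotlib 3.10.9 were used.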

Additional observations from a re-analysis of the deposited data

Results flagged for a closer look

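For all 15 choroid plexus genes in the table, of which 14 have a fold in tau-/- and Defb11 is listed at 0 FPKM with PTZ, the single library of each genotype moved in opposite directions past 1.5-fold, higher with PTZ in tau+/+ and lower with PTZ in tau-/-. With 1 library per condition this difference between genotypes was not tested, and listed choroid plexus genes outside the table could not be compared. Of all 230 genes, 31 (13.5%) did so, Defb11 included. Among the 6 genes, the log2 response in tau-/- was -5.07 for Ttr, -1.49 for Lbp, -3.80 for F5, -5.73 for Slc4a5, -4.94 for Folr1 and -3.71 for Kcnj13. Among the other choroid plexus genes it was -3.51 for Aqp1, -1.93 for Sostdc1, -3.67 for Wfikkn2, -3.40 for 1500015O10Rik, -3.65 for Abca4, -1.94 for Trpv4, -1.90 for Cldn1 and -1.68 for Rdh5.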

How the results depend on the processing

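The fall in tau-/- kept its direction in every gene that each alternative held, and its size did not. A mean of at least 5 FPKM left 4 of the 6 genes, without F5 and Slc4a5, and leaving out a member left 5. The median log2 response of the 6 genes in tau-/-, -4.37, was -3.83 with a pseudocount of 0.1 FPKM, -2.15 with 1 FPKM and -4.92 with tau+/+ vehicle as baseline. Without Lbp, F5 or Kcnj13 it was -4.94, and without Ttr, Slc4a5 or Folr1 it was -3.80. For the 9 other choroid plexus genes (-3.40, Defb11 ranked as the largest fall) it was -2.76, -1.10 and -2.95 under the same pseudocounts and baseline and -2.67 over 8 genes with a mean of at least 1 FPKM, while a mean of at least 5 FPKM left 3 genes, of which 3 were lower. Between the PTZ libraries the median of the 6 genes was -4.88 and -3.19 with the pseudocounts and -5.00 after centring. For the rise in tau+/+, with a pseudocount of 1 FPKM 3 genes passed 1.5-fold, and 0 passed 2-fold. After centring each library on 210 other listed genes 0 passed, the median was -0.0203, and the log2 responses of Lbp, F5 and Slc4a5 turned to -0.0787, -0.114 and -0.0590. The authors chose most of these 210 genes for a rise in the same library, so that centring removes a rise by construction. It moved the median log2 level of the 6 genes to 3.37 in tau+/+ vehicle, 3.34 in tau+/+ PTZ, 2.88 in tau-/- vehicle and -1.02 in tau-/- PTZ. In the vehicle libraries 0 genes were lower by over 1.5-fold with a pseudocount of 1 FPKM and 0 by over 2-fold, and the median was -0.53 with a mean of at least 5 FPKM. No paired analysis was possible because each condition has 1 library. Values under 1 FPKM are limited by depth.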
